A study of Mus musculus with 9 samples.

Results

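The 10 genes described here are Gclc, Gclm, Cth, Gsr, Gsta4, Gstm1, Txnrd1, Prdx1, Srxn1 and Nqo1. They encode enzymes of the glutathione and thioredoxin antioxidant systems, apart from Nqo1, which encodes a quinone reductase. The 10 genes were chosen by name as rows of the deposited expression files, and all 10 were found among the 55450 genes listed for each library. All 10 also passed the filter on low values, a level of 1 FPKM or more in 3 or more libraries, which left 12441 genes for testing. RNA had been sequenced from primary articular chondrocytes of the mouse, the resident cells of joint cartilage. There were 3 groups with 3 libraries each: bleomycin followed by ST045849, bleomycin followed by DMSO, and vehicle (buffer) followed by DMSO. Cells of every group were kept at 3% oxygen with 10% serum and were given hyaluronidase at 4 U/mL for 4 h without serum, starting 2 days after seeding. Bleomycin, a glycopeptide that breaks DNA, was given at 50 µg/mL for 24 h and washed off. ST045849 was then present at 20 µM for 5 days, with medium renewed every 48 h. It is a small molecule that inhibits O-GlcNAc transferase, the product of Ogt, which modifies serines and threonines of intracellular proteins with a single sugar. No group had ST045849 without bleomycin among the samples analysed here, so an effect of ST045849 on cells not given bleomycin was not measured. The labels give no strain or age. They also leave unstated whether libraries of 1 group are separate cultures or animals, and p-values refer to the spread among the libraries as deposited, which may be technical.

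Glutathione is a cysteine-containing tripeptide that keeps the cytoplasm reduced. Its synthesis starts with glutamate-cysteine ligase, and the cysteine can be taken up as cystine or made from methionine by transsulfuration. Glutathione S-transferases couple it to reactive compounds, and glutathione reductase regenerates it with NADPH. The thioredoxin system runs in parallel: thioredoxin reductase passes electrons from NADPH to thioredoxin, which in turn reduces the peroxiredoxins that remove hydrogen peroxide. Many genes of both systems are transcribed through NRF2, a factor that KEAP1 holds at low levels until oxidants or electrophiles modify it. NRF2 pairs with small MAF proteins and binds a short DNA element, the antioxidant response element. In cartilage, oxidant load and the loss of such defences have been studied as part of chondrocyte ageing and osteoarthritis.

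The deposited unit, FPKM, divides each gene's fragments by its exon length and the library's size. Levels are compared between genes on that scale only, and length trends that differ between libraries, described below, limit this comparison. From the spacing of low FPKM values, library depth was 0.877 to 1.0 times that of vehicle library 1. By that spacing the lowest of the 10 genes, Gclm, was covered by about 404 to 1197 fragments per library, an estimate that could not be checked against counts. Chondrocyte markers were abundant in every library. The summed FPKM of the 10 chondrocyte markers ranged from 16532 to 23585 with bleomycin plus ST045849, from 19710.4 to 27787 with bleomycin and from 26451 to 36398 with vehicle. Ogt averaged 18.7 ± 7.28 FPKM with bleomycin plus ST045849, 36.9 ± 6.86 with bleomycin and 41.9 ± 11.9 with vehicle (SD, n = 3 each). The gene of the targeted enzyme was thus measured at its lowest mean in the inhibitor group (limma adjusted p = 0.203 against bleomycin and 0.047 against vehicle). Against bleomycin it was called lower in the 2-group fit with the replicate number as a block (adjusted p = 0.0168). Ogt has 8045 exon bases, more than any of the 10 genes, and longer genes read lower in ST045849 libraries 2 and 3, as described below. No value of Ogt with the length trend removed is given here. Expression of Ogt does not measure the enzyme's inhibition.

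With all 10 genes together, the bleomycin plus ST045849 libraries stood highest and the vehicle libraries lowest. Each gene's log2(FPKM + 1) was centred on its own mean over the 9 libraries and the 10 centred values were averaged in each library. The averages were 0.27, 0.96 and 0.93 in bleomycin plus ST045849 libraries 1, 2 and 3. They were -0.34, -0.11 and -0.1 in the bleomycin libraries, and -0.3, -0.77 and -0.55 in the vehicle libraries. Vehicle library 1 therefore lay within the range of the bleomycin libraries, and ST045849 library 1 lay well below the other two libraries of its group. ST045849 library 1 was the lowest of its group for 10 of the 10 genes, against 39.6% of all tested genes. By mean level, Prdx1 was the highest and Gclm the lowest of the 10 genes in each group. Between them the order differed between groups. Gsta4, for example, stood above Txnrd1 and Srxn1 with bleomycin plus ST045849 and below both with vehicle, while neighbours in the middle of the order mostly lay within 1 SD of each other. Gsta4 has fewer exon bases than both, and short genes read higher in ST045849 libraries 2 and 3, as described below. The part of gene length in this order was not tested.

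The genomic positions below are those of GRCm38, and start sites are from RefSeq on GRCm38.p6. The RefSeq promoter table held 6 of the 10 genes, namely Gclm, Gstm1, Txnrd1, Srxn1, Nqo1 and Prdx1. The promoters of Gclc, Gsr, Gsta4 and Cth were not analysed here. The core letters of the antioxidant response element, TGACNNNGC, were searched on both strands from 250 bases before to 50 bases after each listed start. They occurred in 4 of the 6 genes (Gclm, Txnrd1, Srxn1 and Prdx1), against 14.0% of the 27025 genes in the table. The 150 bases before the start are shown for the 3 genes where the match lies upstream, because these genes are described across the treatments below. Capitals mark the match, which in each reads as GCNNNGTCA on the strand of the gene and starts at -134 in Gclm, at -92 before the second listed start of Txnrd1 and at -133 in Prdx1.
Gclm (chr3:122245407-122245556, + strand): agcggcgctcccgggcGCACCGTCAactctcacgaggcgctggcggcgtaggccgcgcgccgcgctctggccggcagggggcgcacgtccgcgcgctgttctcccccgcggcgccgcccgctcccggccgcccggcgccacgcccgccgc
Txnrd1 (chr10:82859056-82859205, + strand): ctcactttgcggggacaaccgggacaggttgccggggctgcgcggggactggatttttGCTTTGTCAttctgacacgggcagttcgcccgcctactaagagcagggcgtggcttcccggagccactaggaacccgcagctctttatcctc
Prdx1 (chr4:116685449-116685598, + strand): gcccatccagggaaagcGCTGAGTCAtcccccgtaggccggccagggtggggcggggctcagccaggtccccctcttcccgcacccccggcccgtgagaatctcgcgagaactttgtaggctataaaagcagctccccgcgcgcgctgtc
The Prdx1 match also contains TGAGTCA, the letters of the AP-1 site, and the other matches do not. In Srxn1 the match starts 29 bases into the transcript. A match is a run of letters only, and binding was not measured in these samples.

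**Figure D1:**
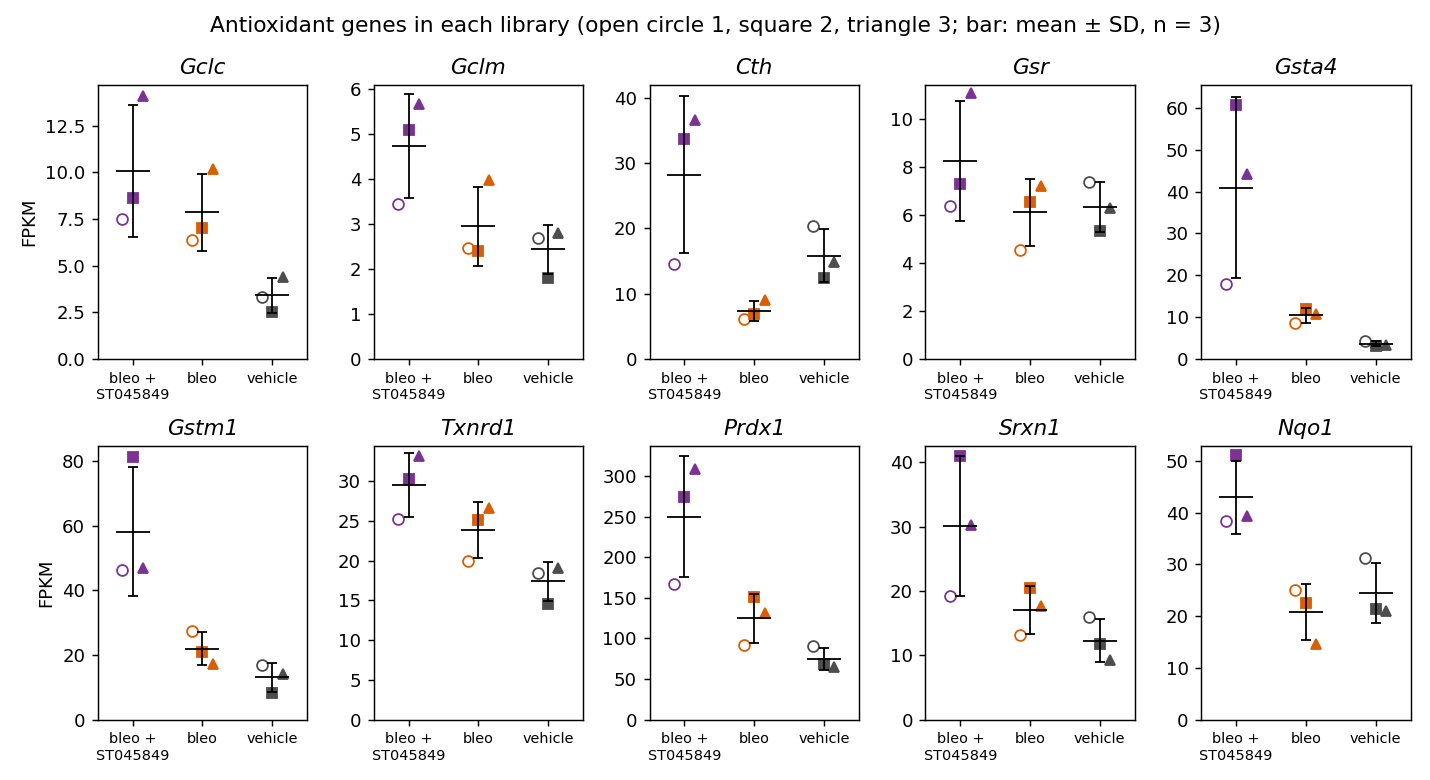
FPKM of each of the 10 genes in each library, with bleomycin plus ST045849 on the left, bleomycin in the middle and vehicle on the right of each panel. Symbols mark library 1 (open circle), 2 (square) and 3 (triangle), and bars give the mean ± SD (n = 3). For Gsta4 the bleomycin plus ST045849 libraries spread from 17.9 to 60.6 FPKM, all above the other 6 libraries.

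Glutamate-cysteine ligase sets the pace of glutathione synthesis. Gclc (chromosome 9, 77754535 to 77794485) encodes its catalytic subunit. Gclc measured 7.48, 8.62 and 14.1 FPKM with bleomycin plus ST045849, 6.36, 7.03 and 10.2 FPKM with bleomycin, and 3.31, 2.52 and 4.4 FPKM with vehicle. All 6 bleomycin-treated libraries lay above all 3 vehicle libraries, while the groups with and without ST045849 overlapped. Gclc was higher with bleomycin plus ST045849 than with vehicle by 1.3 ± 0.27 on the log2 scale (SE, limma adjusted p = 0.0147). Bleomycin against vehicle gave 1.01 ± 0.27 (limma adjusted p = 0.0572), and bleomycin plus ST045849 against bleomycin gave 0.3 ± 0.27 (limma adjusted p = 0.477). Among the 10 genes Gclc was thus the one with the smallest unadjusted p for bleomycin alone and the largest adjusted p for the addition of ST045849.

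Gclm (chromosome 3, 122245557 to 122270732) encodes the modifier subunit, which raises the activity of the catalytic one. Gclm measured 3.45, 5.09 and 5.67 FPKM with bleomycin plus ST045849, 2.47, 2.41 and 3.97 FPKM with bleomycin, and 2.69, 1.81 and 2.81 FPKM with vehicle. Library 1 of the ST045849 group lay below bleomycin library 3, and the bleomycin and vehicle groups overlapped. In the fit of the deposited values no comparison passed for Gclm, with 0.73 ± 0.23 for bleomycin plus ST045849 against vehicle (limma adjusted p = 0.0648), 0.54 ± 0.23 against bleomycin (0.211) and 0.19 ± 0.23 for bleomycin against vehicle (0.765). The value against vehicle passed after removal of each library's length trend (0.88, limma adjusted p = 0.0485) and without ST045849 library 1 (0.9, limma adjusted p = 0.0229). In level, Gclm lay below Gclc in each of the 9 libraries, and whether the changes of the 2 subunits differ was not tested. Exons of Gclm overlap Gm17494 and Gm6061 over 4.71% of their length, and 4.58% of its 50-base words occur in other transcripts, including those of Ppia. How many of its fragments this touches was not measured, so its level is uncertain.

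Cth (chromosome 3, 157894248 to 157925077) encodes cystathionine gamma-lyase, the last enzyme of transsulfuration, which releases cysteine. Cth measured 14.5, 33.6 and 36.6 FPKM with bleomycin plus ST045849, 6.08, 6.95 and 9.03 FPKM with bleomycin, and 20.3, 12.4 and 14.8 FPKM with vehicle. All 3 bleomycin libraries lay below all libraries of both other groups, and ST045849 library 1 lay within the vehicle range while libraries 2 and 3 lay above it. The log2 change was 1.72 ± 0.33 for bleomycin plus ST045849 against bleomycin (limma adjusted p = 0.203), -1.0 ± 0.33 for bleomycin against vehicle (0.121) and 0.72 ± 0.33 for bleomycin plus ST045849 against vehicle (0.163). None of the 3 passed in the 9-library fit. Without ST045849 library 1, all 3 comparisons of Cth passed, with limma adjusted p of 0.00828, 0.0245 and 0.0143 in the same order.

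Gsr (chromosome 8, 33652523 to 33698163) encodes glutathione reductase, which returns oxidised glutathione to its reduced form. Gsr measured 6.37, 7.3 and 11.1 FPKM with bleomycin plus ST045849, 4.56, 6.56 and 7.21 FPKM with bleomycin, and 7.38, 5.33 and 6.31 FPKM with vehicle. The 3 groups overlapped throughout. It had the smallest change of the 10 genes from bleomycin alone (-0.06 ± 0.24, limma adjusted p = 0.947) and for bleomycin plus ST045849 against vehicle (0.31 ± 0.24, limma adjusted p = 0.38). Against bleomycin the value was 0.37 ± 0.24 (limma adjusted p = 0.336).

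Of the 10 genes, the glutathione S-transferases Gsta4 and Gstm1 showed the largest differences between the combined treatment and vehicle. Gsta4 (chromosome 9, 78182774 to 78209349) encodes the alpha-class enzyme that conjugates 4-hydroxynonenal, an aldehyde from lipid peroxidation. Gsta4 measured 17.9, 60.6 and 44.3 FPKM with bleomycin plus ST045849, 8.57, 12.0 and 10.8 FPKM with bleomycin, and 4.33, 3.22 and 3.36 FPKM with vehicle. No 2 of the 3 groups overlapped. The log2 change was 3.02 ± 0.36 for bleomycin plus ST045849 against vehicle (limma adjusted p = 0.00142), 1.72 ± 0.36 against bleomycin (0.203) and 1.3 ± 0.36 for bleomycin against vehicle (0.0672). Gsta4 was thus higher with the combined treatment than with vehicle, and the call against vehicle held when any 1 of the 9 libraries was left out (adjusted p up to 0.0103).

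Gstm1 (chromosome 3, 108012255 to 108017973) encodes a mu-class enzyme that conjugates a broad range of electrophiles. Gstm1 measured 46.2, 81.1 and 46.9 FPKM with bleomycin plus ST045849, 27.4, 21.1 and 17.3 FPKM with bleomycin, and 17.0, 8.19 and 14.2 FPKM with vehicle. The groups again did not overlap, although bleomycin library 3 and vehicle library 1 were 17.3 and 17.0 FPKM. Gstm1 was higher with bleomycin plus ST045849 than with vehicle by 2.07 ± 0.31 (limma adjusted p = 0.00393). Against bleomycin the change was 1.34 ± 0.31 (0.203), and bleomycin against vehicle gave 0.73 ± 0.31 (0.242). Of its 50-base words, 18.9% also occur in other transcripts, mainly of Gstm2-ps1 and Gstm3, so its level is uncertain to the extent that the authors' counting shared such reads.

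Of the 10 genes, Txnrd1, Prdx1 and Srxn1 belong to the thioredoxin system. Txnrd1 (chromosome 10, 82833951 to 82897712) encodes the cytosolic thioredoxin reductase, a selenoprotein. Txnrd1 measured 25.2, 30.2 and 33.1 FPKM with bleomycin plus ST045849, 19.9, 25.1 and 26.6 FPKM with bleomycin, and 18.5, 14.6 and 19.1 FPKM with vehicle. The 6 bleomycin-treated libraries lay above the vehicle ones, and the groups with and without ST045849 overlapped. Txnrd1 was higher with bleomycin plus ST045849 than with vehicle by 0.73 ± 0.2 (limma adjusted p = 0.0438), and the call was lost in 7 of the 9 fits that left out 1 library (adjusted p up to 0.183). The other comparisons gave 0.3 ± 0.2 against bleomycin (0.353) and 0.43 ± 0.2 for bleomycin against vehicle (0.298).

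Prdx1 (chromosome 4, 116685544 to 116700822) encodes peroxiredoxin 1, which removes hydrogen peroxide with electrons from thioredoxin. Prdx1 measured 167, 274 and 309 FPKM with bleomycin plus ST045849, 91.9, 151 and 131 FPKM with bleomycin, and 90.4, 68.8 and 64.6 FPKM with vehicle. No groups overlapped, but bleomycin library 1 (91.9 FPKM) and vehicle library 1 (90.4 FPKM) were nearly equal. Prdx1 was higher with bleomycin plus ST045849 than with vehicle by 1.7 ± 0.28 (limma adjusted p = 0.00633), a call kept without any 1 library (adjusted p up to 0.0362). It changed by 0.98 ± 0.28 against bleomycin (0.203) and by 0.72 ± 0.28 for bleomycin against vehicle (0.212). Of its 50-base words, 8.81% are shared with other transcripts, mainly of the predicted genes Gm21399 and Gm7204.

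Srxn1 (chromosome 2, 152105516 to 152111376) encodes sulfiredoxin, which repairs peroxiredoxins that peroxide has overoxidised. Srxn1 measured 19.2, 40.9 and 30.2 FPKM with bleomycin plus ST045849, 13.1, 20.4 and 17.6 FPKM with bleomycin, and 15.9, 11.7 and 9.25 FPKM with vehicle. The ST045849 group lay above vehicle throughout, its library 1 lay below bleomycin library 2, and the bleomycin and vehicle groups overlapped. Srxn1 was higher with bleomycin plus ST045849 than with vehicle by 1.2 ± 0.29 (limma adjusted p = 0.03), a call lost without vehicle library 2 or 3 or without ST045849 library 2 or 3 (adjusted p up to 0.122). The change was 0.75 ± 0.29 against bleomycin (0.204) and 0.45 ± 0.29 for bleomycin against vehicle (0.508).

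Nqo1 (chromosome 8, 107388225 to 107403206) encodes the quinone reductase that is widely read as a sign of NRF2 activity. Nqo1 measured 38.3, 51.1 and 39.4 FPKM with bleomycin plus ST045849, 25.0, 22.6 and 14.7 FPKM with bleomycin, and 31.2, 21.4 and 21.0 FPKM with vehicle. The ST045849 group lay above all other libraries, and the bleomycin and vehicle groups overlapped. The log2 change of Nqo1 was 1.04 ± 0.25 against bleomycin (limma adjusted p = 0.203), 0.79 ± 0.25 against vehicle (0.0651) and -0.24 ± 0.25 for bleomycin against vehicle (0.718). None of these passed in the 9-library fit, and the value against vehicle did so without vehicle library 1 or ST045849 library 1 (adjusted p down to 0.0365).

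**Figure D2:**
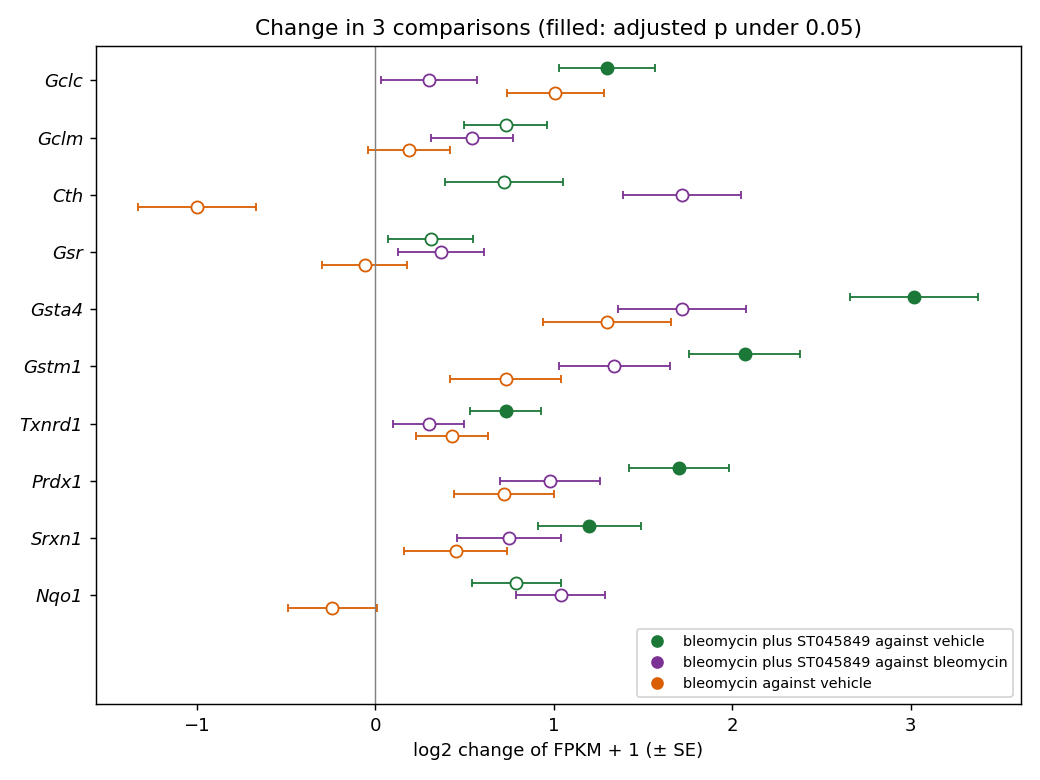
Log2 change of FPKM + 1 with its standard error for each of the 10 genes in bleomycin plus ST045849 against vehicle (top of each row), bleomycin plus ST045849 against bleomycin (middle) and bleomycin against vehicle (bottom). Filled points passed an adjusted p of 0.05 over all tested genes: 6 genes did so in the first comparison, and Cth, Gsr and Nqo1 had values below 0 for bleomycin against vehicle.

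Counted together, in bleomycin plus ST045849 against vehicle, 6 of the 10 genes rose (Gsta4, Gstm1, Prdx1, Gclc, Srxn1 and Txnrd1) and none fell, where 9.85% of all tested genes passed, 8.11% as higher and 1.74% as lower. At an unadjusted p under 0.05 the numbers were 8 of 10 genes, against 31.1% of all tested genes. All 10 had a higher mean, with a median log2 change of 0.99 against 0.19 over all tested genes. The groups did not overlap for 8 of the 10 genes, all higher with the combined treatment, where 21.0% of all tested genes lay apart in that direction and 6.66% in the other. The exceptions were Gsr and Cth. Gsta4, Gstm1 and Prdx1 were called in this fit and in all 9 fits without 1 library, while the number of called genes ran from 3 without vehicle library 2 (2.31% of all tested genes) to 9 without ST045849 library 1 (24.7%). Scaling the libraries by median ratios moved the median of all tested genes to 0.0 and left 4 of the 10 genes called (Gsta4, Gstm1, Prdx1 and Gclc), where 6.94% of all tested genes passed. Over all tested genes the calls were then 498 higher and 365 lower, against 1009 higher and 216 lower as deposited.

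In bleomycin against vehicle none of the 10 genes passed by limma at an adjusted p of 0.05, where 4.88% of all tested genes did, 4.2% as higher and 0.675% as lower. At an unadjusted p under 0.05 the count was 5 of 10, against 17.4% of all tested genes. Gclc and Gsta4 came nearest, at 1.01 and 1.3 log2 units, and both passed with a pseudocount of 0.1, with TPM scaling, or after removal of each library's length trend, settings in which 5.22, 5.07 and 6.87% of all tested genes passed. The bleomycin libraries lay above the vehicle libraries for Gclc, Gsta4, Gstm1, Txnrd1 and Prdx1, where 21.4% of all tested genes did so, and below them for Cth alone, against 6.53%. The median log2 change of the 10 genes was 0.44, against 0.1 over all tested genes. In these bulk samples a change in the share of a cell type and a change in RNA per cell cannot be told apart.

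In bleomycin plus ST045849 against bleomycin none of the 10 genes passed by limma over the 9 libraries, where 0% of all tested genes did. All 10 nevertheless had a higher mean with ST045849, by 0.3 to 1.72 log2 units and with a median of 0.86 against 0.06 over all tested genes. At an unadjusted p under 0.05 the count was 7 of 10, against 22.5% of all tested genes. The groups lay apart for Gsta4, Gstm1, Cth, Nqo1 and Prdx1, all higher with ST045849, where 16.5% of all tested genes lay apart in that direction and 8.67% in the other. Libraries of these 2 groups with the same number deviated together, and a fit of the 2 groups with the replicate number as a block called 6 of the 10 genes as higher. These were Cth (adjusted p = 0.0072), Gsta4 (0.0077), Gstm1 (0.0119), Nqo1 (0.0168), Prdx1 (0.0173) and Srxn1 (0.0253) by limma, where 19.3% of all tested genes passed in either direction and 11.3% as higher. The same 6 genes were called without a block when ST045849 library 1 was left out, where 18.0% of all tested genes passed. Rescaling each library to TPM lowered the median of all tested genes to -0.19 and left the values of Gclc and Txnrd1 at 0.04 and 0.02.

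Gene length moved with this comparison. Relative to the mean over all libraries, log2 values changed with exon length by 0.06, -0.7 and -0.46 per 10-fold length in the bleomycin plus ST045849 libraries. The slopes were 0.32, 0.13 and 0.31 in the bleomycin libraries and -0.24, 0.34 and 0.25 in the vehicle libraries, so short genes read higher in ST045849 libraries 2 and 3. The 3 shortest of the 10 genes, Gsta4 (1266 bases), Gstm1 (1473 bases) and Nqo1 (1553 bases), were among the 4 with the largest change. The 2 longest, Gclm (6291 bases) and Txnrd1 (7086 bases), had changes of 0.54 and 0.3. After removal of each library's length trend, the change with ST045849 was 1.52 for Cth, 1.31 for Gsta4, 0.95 for Gstm1, 0.82 for Prdx1 and 0.66 for Nqo1. All 10 remained higher with ST045849 and their median was 0.69, with Gclm and Txnrd1 at 0.72 and 0.53. In the 2-group fit with both the trend removed and the replicate block, 2 of the 10 genes passed, Cth (limma adjusted p = 0.0385) and Gsta4 (0.0387), where 1.13% of all tested genes did. The trend also moved the combined treatment against vehicle. Its removal took Gsta4 from 3.02 to 2.67, Gstm1 from 2.07 to 1.72 and Nqo1 from 0.79 to 0.45 (limma adjusted p = 0.176). Gclm and Txnrd1 went up, from 0.73 each to 0.88 and 0.93. The median of the 10 genes was 0.97 without the trend, and 7 were called, where 10.1% of all tested genes passed.

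**Figure D3:**
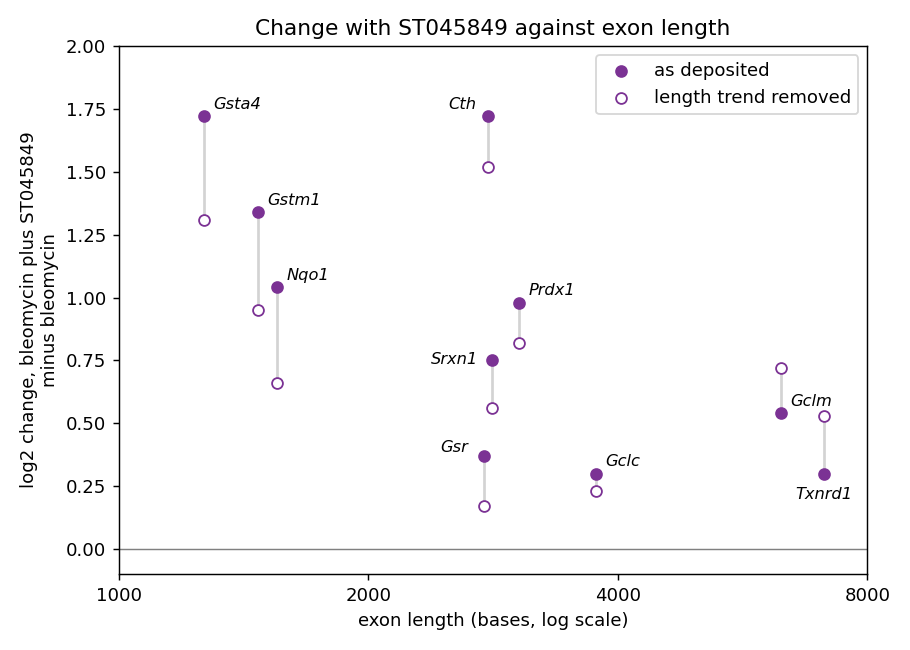
Log2 change of bleomycin plus ST045849 minus bleomycin against exon length (log axis) for the 10 genes, as deposited (filled) and after removal of each library's length trend (open). Values of the shorter genes fall when the trend is removed (Gsta4, 1.72 as deposited and 1.31 without the trend), those of Gclm and Txnrd1 go up, and all stay above 0.

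Markers of other cell types also differed between groups, and their part in the values above was not tested. The 8 fibroblast or synovial markers summed to 2554 to 4992 FPKM with bleomycin plus ST045849, 4648 to 6261 with bleomycin and 2682 to 3190.4 with vehicle. Of these, Thy1, Lum and Dcn were called higher in bleomycin against vehicle, and Thy1 alone in bleomycin plus ST045849 against vehicle. The 10 macrophage markers summed to 11.9 to 18.0, 10.9 to 12.6 and 3.05 to 5.75 FPKM in the same order, and C1qb, C1qc and Tyrobp were at 0 in every library. The 3 macrophage markers that could be tested, Cd68, Lyz2 and Cd14, were higher than vehicle in both bleomycin-treated groups. Csf1r, C1qa, Ptprc and Adgre1 were nearly absent, with group means of at most 0.0736, 0.048, 0.011 and 0.00823 FPKM. Osteoblast markers (5 genes) summed to 16.4 to 53.4, 32.5 to 93.4 and 6.37 to 25.3 FPKM, with Bglap and Bglap2 called higher than vehicle in both bleomycin-treated groups and Dmp1 with bleomycin alone. Bglap and Bglap2 were low, at means of 0.137 and 0.0295 FPKM with vehicle and at most 3.21 and 4.11 FPKM with treatment. Ibsp was not called against vehicle. Sp7 went the other way with bleomycin and with the combined treatment (-0.13 and -0.15, limma adjusted p = 0.826 and 0.618). The 5 endothelial and 5 skeletal muscle markers stayed at or below 0.566 and 2.85 FPKM in sum. Of the 10 chondrocyte markers none passed with bleomycin against vehicle, and Acan, Matn3 and Col11a1 were lower with bleomycin plus ST045849 than with vehicle. In the latter comparison Col2a1 did not pass (-0.65, limma adjusted p = 0.212). Comp and Matn1 went the other way (0.33 and 0.47, limma adjusted p = 0.445 and 0.378). The 2-group fit with the replicate block called none of the 10 against vehicle with the combined treatment.

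The other genes of these pathways were taken as 9 lists of 98 symbols, of which 88 rows were tested. In bleomycin plus ST045849 against vehicle 31 rose and none fell, where 8.11% of all tested genes passed as higher and 1.74% as lower. Their median log2 change was 0.75, beside 0.99 for the 10 genes and 0.19 for all tested genes. With each library's length trend removed it was 0.52, beside 0.97 and 0.17. Of the 88, 27 were then called as higher, where 8.46% of all tested genes were. In bleomycin against vehicle 8 rose and none fell (median 0.23), where 4.2% of all tested genes passed as higher and 0.675% as lower. In bleomycin plus ST045849 against bleomycin none passed (median 0.46, 75 of 88 higher), where 0% of all tested genes did. With the replicate block the last comparison gave 31 higher and 2 lower, where 11.3% of all tested genes passed as higher and 8.0% as lower. After removal of each library's length trend as well, 7 of the 88 were higher and none lower, where 1.13% of all tested genes passed.

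By list, the counts against vehicle below stand beside the 9.85% of all tested genes that passed, and no test compared the lists. Among 18 other glutathione S-transferases, 10 rose with the combined treatment, led by Mgst1 (microsomal, 2.59 ± 0.27, limma adjusted p = 0.000987) and Gstm2 (1.77 ± 0.22, 0.00153), and both also rose with bleomycin alone (1.89 ± 0.27 and 0.98 ± 0.22). With each library's length trend removed, 8 of the 18 were called against vehicle, where 10.1% of all tested genes passed. In the 2-group fit with the replicate block only Mgst1 and Gstm2 were, where 1.6% of all tested genes passed. In the list of glutathione synthesis, breakdown and cystine uptake, 2 of 9 rose, Gss (glutathione synthetase, which adds glycine; 1.33 ± 0.31) and Cdo1 (cysteine dioxygenase, which consumes cysteine; 1.41 ± 0.25). Slc7a11, the cystine transporter subunit that pairs with the product of Slc3a2, stayed below the filter at a mean of 0.972, 0.529 and 0.936 FPKM with bleomycin plus ST045849, bleomycin and vehicle. Of 5 glutathione peroxidases 2 rose (Gpx3 and Gpx8), of 12 thioredoxins, glutaredoxins and partners 2 (Txnip and Glrx3), and of 9 other peroxiredoxins and sulfoxide reductases 2 (Prdx4 and Msrb2). With the length trend removed, Gpx8, Txnip and Msrb2 were no longer called and Glrx was. The 2-group fit with the replicate block called no gene of these lists against vehicle. Txn1, thioredoxin itself, averaged 197 ± 57.5 FPKM with bleomycin plus ST045849, 92.4 ± 12.6 with bleomycin and 114 ± 51.9 with vehicle. Against bleomycin, Txn1 passed by limma with the replicate block (adjusted p = 0.017) but not in the 9-library fit (0.203). Txn1 is short (1051 exon bases), and it did not pass with the block once the length trend was removed. Of 4 superoxide dismutases and catalase, extracellular Sod3 rose (1.42 ± 0.29). Against vehicle, Sod3 stayed called with the length trend removed but not in the 2-group fit with the replicate block. Of 9 rows in the list of NADPH-producing enzymes none passed, a list that also holds Tkt and Taldo1, pentose phosphate enzymes that do not make NADPH themselves.

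Among NRF2 and its regulators the transcripts of the factor and its inhibitor themselves did not pass. Nfe2l2, which encodes NRF2, averaged 32.5 ± 6.28 FPKM with bleomycin plus ST045849, 27.5 ± 4.68 with bleomycin and 28.6 ± 5.06 with vehicle. Keap1 averaged 19.8 ± 3.07, 15.6 ± 0.915 and 16.0 ± 1.42 FPKM in the same groups. The small MAF gene Maff rose in both comparisons against vehicle (1.6 ± 0.25 with bleomycin plus ST045849 and 1.48 ± 0.25 with bleomycin), and Mafk and Sqstm1 rose with the combined treatment, so that 3 of 9 genes of this list rose. In the 2-group fit with the replicate block, Maff alone of this list was called against vehicle with the combined treatment. Among 13 other NRF2 target genes 9 rose with the combined treatment, including Cbr3 (a carbonyl reductase, 1.75 ± 0.24, adjusted p = 0.00259). The count was also 9 with the length trend removed. It was 3 in the 2-group fit with the replicate block (Hmox1, Cbr3 and Osgin1), where 1.6% of all tested genes passed. Hmox1 (heme oxygenase 1) averaged 661 ± 385 FPKM with bleomycin plus ST045849, 117 ± 27.5 with bleomycin and 41.3 ± 21.3 with vehicle, and rose by 3.86 ± 0.5 with the combined treatment (limma adjusted p = 0.00214).

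**Figure D4:**
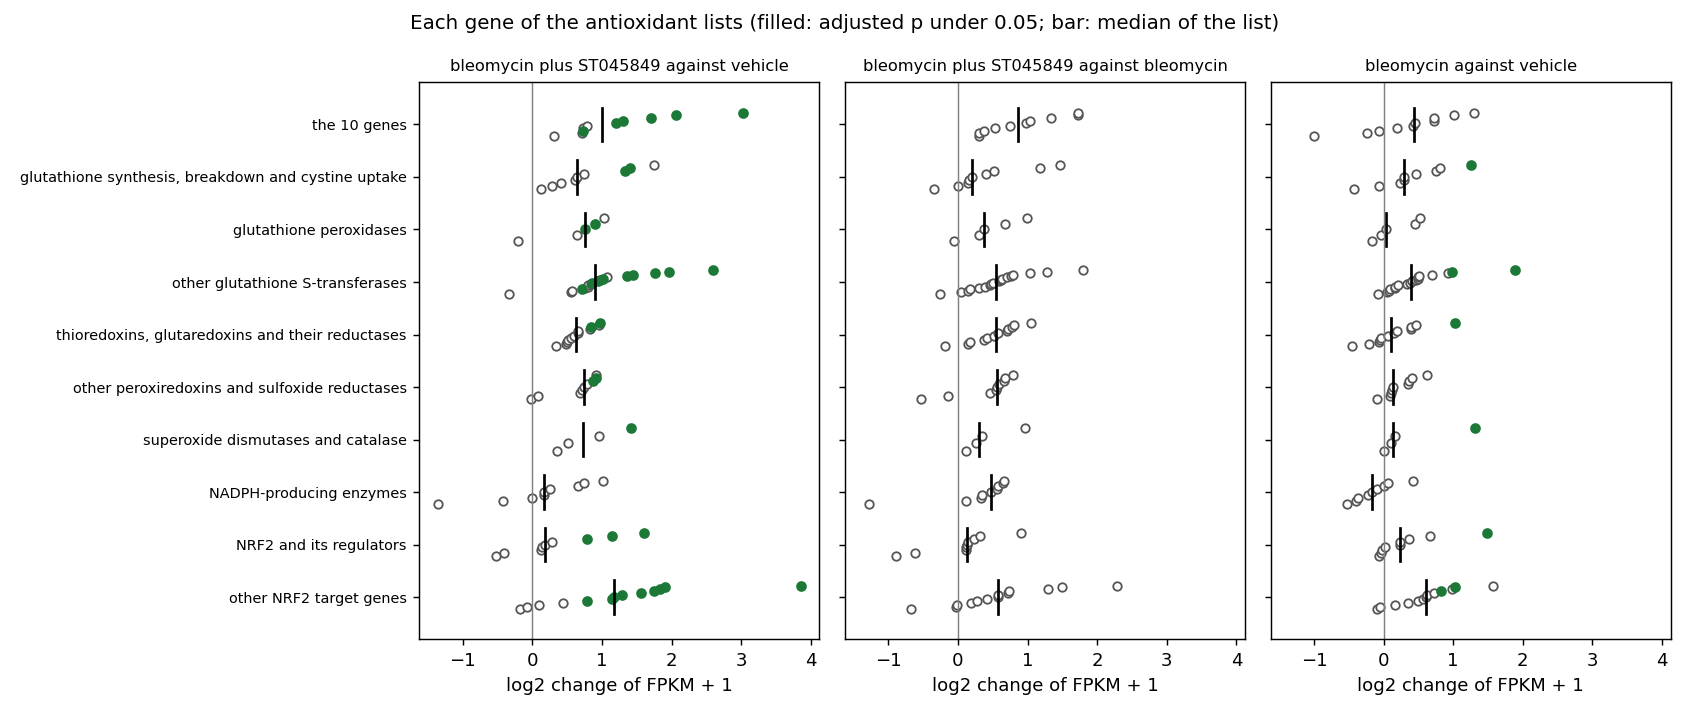
Log2 change of FPKM + 1 of each tested gene in the 10 genes and the 9 other lists, for bleomycin plus ST045849 against vehicle (left), bleomycin plus ST045849 against bleomycin (middle) and bleomycin against vehicle (right). Filled points passed an adjusted p of 0.05 and bars mark each list's median. The medians of the 10 genes were 0.99, 0.86 and 0.44, and no point is filled in the middle panel.

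The 10 genes did not share a single profile over the 9 libraries. The root mean square difference between a gene's centred log2 values and the average of the 10 ran from 0.2 for Srxn1 and 0.24 for Prdx1 to 0.58 for Cth and 0.76 for Gsta4. The median over the tested genes outside the 10 was 0.57. Each of the 10 genes is part of the average, which by itself draws them nearer to it, so the 2 sets are not compared on equal terms. Outside the 10 genes, the profiles nearest to the average were those of H3c15 (0.1), 1110012L19Rik, Uqcc3 and Gadd45a (0.11 each) and Sbds (0.12). Gadd45a, for example, averaged 49.2 ± 15.0 FPKM with bleomycin plus ST045849, 26.0 ± 0.588 with bleomycin and 18.3 ± 3.62 with vehicle. None of these 5 genes is in the antioxidant lists. This likeness is a description over 9 libraries that share treatment groups and length trends.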

How the data were processed

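Per the labels' protocols, stranded poly(A) mRNA libraries were made. The submitters' processing notes name Trimmomatic, STAR and GRCm38, with no versions. The deposited values are FPKM per gene, made by the authors. The sources used here give neither the counting program nor its annotation, denominator or use of strand. Symbols came from the deposited row names, and positions and exon lengths from GENCODE vM21, which held 99.5% of the identifiers.

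The 12441 genes that reached 1 FPKM in 3 or more libraries were tested as log2(FPKM + 1), which understates changes of low genes. The 9 libraries were fitted in 1 model with limma 3.58.1 (R 4.3.3), with variances following the mean level. P-values were adjusted by Benjamini-Hochberg over all tested genes and called under 0.05. The length trend was a loess (span 0.5) of centred values on log exon length, per library.

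The method was tested on simulated data with noise drawn independently for each gene and library. The simulation held no length trend and no paired libraries, so it does not bear on those features of the data. The 10 genes, the lists and the tests were chosen with earlier results of these data known. Named beside the 10 genes are Ogt, markers, the 5 genes nearest in profile and, per list, up to 2 called genes each way by adjusted p, or else the most abundant and those nearest to passing; Nfe2l2, Keap1 and Slc7a11 were added after their values were seen.

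Equal replicate numbers of the bleomycin plus ST045849 and bleomycin groups correlated at 0.466, 0.481 and 0.5 in their deviations from group means, so that comparison is also given paired. The labels state no pairing, and unequal numbers of other groups reached 0.568. Alternatives were 10 settings and leaving out each of the 9 libraries.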

Additional observations from a re-analysis of the deposited data

How the results depend on the processing

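Over 10 other settings and 9 fits without 1 library, Gsr alone of the 10 genes changed sign, in bleomycin against vehicle, at 0.11 without bleomycin library 1 and 0.04 without vehicle library 1 (range over the 9 fits without 1 library -0.17 to 0.11). Of the other named genes, Gpx4 in that comparison gave -0.1 with median-of-ratios scaling and -0.08 and -0.21 without bleomycin library 3 or vehicle library 2 (up to 0.21 in the others). Prdx5 gave -0.05 with that scaling and -0.01 without bleomycin library 2 or vehicle library 2 (up to 0.28). Sod2 against bleomycin gave -0.01 with TPM scaling and 0.0 without ST045849 library 3 (up to 0.48), and Tkt in the combined treatment against vehicle gave -0.01 with TPM scaling. None of these values was called, and the cause was not tested. Gclm has no value in the setting with a mean of at least 5 FPKM, and against vehicle it was called with the combined treatment with a replicate block in all 9 libraries.

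The count of called genes among the 10 moved as follows, with the share of all tested genes called in parentheses where the report does not give it. In bleomycin against vehicle, where none was called, it was 2 with a pseudocount of 0.1, TPM scaling, or the length trend removed, 1 with a replicate block in all 9 libraries (5.89%), 3 in the 2 groups alone (8.23%), 2 in the 2 groups with a replicate block (6.43%) and 3 with the length trend removed and a replicate block (10.7%). In bleomycin plus ST045849 against bleomycin, none with the block in all 9 libraries, it was 6 in the 2 groups with a replicate block and 2 with the trend removed as well. In bleomycin plus ST045849 against vehicle, where 6 were called, it was 3 with no filter on low values (2.15%, more genes tested) and 2 in the 2 groups with a replicate block (1.6%). It was 4 with median-of-ratios scaling, 5 with TPM scaling (5.71%), 4 in the 2 groups alone (4.99%) and 4 with the length trend removed and a replicate block (2.69%). It was 7 with the length trend removed (10.1%) and 7 with a replicate block in all 9 libraries (11.1%). In both comparisons with vehicle the equal numbers did not deviate together throughout. For libraries 1, 2 and 3 they correlated at -0.071, -0.026 and 0.546 between bleomycin and vehicle. Between bleomycin plus ST045849 and vehicle they correlated at -0.519, -0.279 and 0.424. Whether the vehicle libraries are paired with the others cannot be told from these values. Leaving out each library in turn gave 0 to 3, 0 to 6 and 3 to 9 genes in the same order, with 6 against bleomycin only without ST045849 library 1.

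The other lists had 8, 0 and 31 called, and parentheses below give the share of all tested genes called in each setting. In the first comparison they moved to 4 with no filter (1.59%), 5 with a mean of at least 5 FPKM (3.54%) and 16 with trend and block (10.7%). They moved to 33 with the block (19.3%) and 7 with trend and block (1.13%) in the second. In the third they moved to 13 with no filter (2.15%), 17 with median-of-ratios scaling (6.94%) and 13 in the 2 groups alone (4.99%). There they also moved to 7 with the block (1.6%) and 11 with trend and block (2.69%). Without 1 library they ran from 1 to 10, 0 to 30 and 9 to 52. The share of all tested genes then ran from 1.49 to 6.64%, 0 to 18.0% and 2.31 to 24.7%. Scaling by median ratios lowered the median of all tested genes to -0.02, -0.01 and 0.0, against 0.1, 0.06 and 0.19. Depth was only estimated, and its effect on these comparisons was not tested.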
